A study of Gallus gallus with 6 samples.

Results

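RNA splicing factors and RNA helicases were examined in DT40, a chicken B cell line, with and without the transcription factor IRF4. The members were all genes on the array whose RefSeq chicken symbol begins with SRSF, SF3, SNRP, HNRNP or PRPF, with U2AF, or with LSM, RBM, DDX or DHX followed by a digit. Their symbols alone decided membership, and 58 genes with 168 probes met the rule, of 4932 genes on the array that could be named. In the reference, 143 symbols meet the rule; the 85 without a matched probe are not analysed here, among them SF3B1, SNRPB, HNRNPA1, HNRNPK, PRPF8, U2AF2, DDX39B and DHX9.

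The arrays compared 3 independent cultures of wild-type DT40 with 3 cultures of DT40 in which IRF4 was knocked out, all of them untreated. IRF4 drives plasma cell differentiation from activated B cells, and the question set by the series was how expression changes when it is missing. Each culture was read on 1 one-colour array, and how many knockout clones were used is not stated in the sources at hand. Errors and p-values therefore measure the spread between these cultures and may not cover the spread between clones.

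A newly made transcript is bound by heterogeneous nuclear ribonucleoproteins (HNRNP genes) and by serine/arginine-rich proteins (SRSF genes), which compete over whether an exon is recognised. The spliceosome then assembles from small nuclear ribonucleoproteins: a ring of Sm proteins (SNRP genes) or of LSM proteins holds each core, the SF3 and U2AF proteins find the end of the intron, and PRPF proteins and helicases remodel the complex through catalysis. DEAD-box (DDX) and DEAH-box (DHX) helicases use ATP to pull RNA strands or proteins from RNA apart, and besides splicing they serve ribosome assembly, mRNA export and translation.

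Signals are given in log2 units relative to the 75th percentile of their own array, so that 0 lies at the 75th percentile. A probe's brightness depends on its sequence, and levels are compared only between arrays for the same probe. Between 62.4% and 68.2% of the gene spots of an array were well above background and none was saturated. Arrays of a group correlated at r of 0.9969 or more, and arrays of different groups at 0.9372 to 0.9383. IRF4 fell from 3.01 ± 0.13 (SD, n = 3) to -1.21 ± 0.14 (SD, n = 3), an 18.6-fold lower signal (limma adjusted p = 5.0e-07; exact permutation p = 0.1, two-sided, the smallest that 3 against 3 arrays allow). All 10 B cell markers with a matched probe were well above background on all 6 arrays, CD79B and PAX5 among them. Of these, 5 were higher in the knockout and 2 lower, 4 of them by 1.5-fold or more (CD72 9.24-fold and IRF8 2.30-fold higher, LYN 1.94-fold lower, TNFRSF13C 1.51-fold lower), and their summed linear signal, relative to the 75th percentile, was 145 to 160 in wild type and 186 to 195 in the knockout. Of 5 tested T cell markers 3 were lower (CD3E 10.8-fold) and 1 higher (CD5, 2.95-fold), and CD4 and CD28 were below the filter. Their sums were 68.1 to 70.6 in wild type and 74.5 to 88.4 in the knockout. Most of each sum came from CD3D, which was not called (log2 means of 6.01 in wild type and 6.18 in the knockout). Of 6 myeloid markers 2 were higher (TLR4 3.10-fold) and 2 lower (CEBPB 2.56-fold), with sums of 1.24 to 1.26 and 1.31 to 1.56, where LYZ lacks a value on 1 knockout array, and of 3 erythroid markers 1 was higher and 1 lower, with sums of 0.0934 to 0.109 and 0.111 to 0.113. CD14, CSF3R, MARCO and TAL1 were below the filter. Of the fibroblast markers 5 of 8 were below the detection filter, but COL1A2 was 18.9-fold higher in the knockout. The sums of the 3 tested fibroblast markers were 0.359 to 0.385 in wild type and 5.67 to 6.41 in the knockout. The part of these markers in the results below was not tested.

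Nearly all of the splicing and helicase genes were expressed in both groups. The brightest probe was well above background on all 6 arrays for 57 of the 58 genes. The exception was DDX4, the germ cell helicase also known as vasa, which was well above background on 0 of 6 arrays, with signals from -8.67 to -8.02. It was below the filter and was not tested. Over the other 57 genes the wild-type means ran from -1.61 (RBM12) to 6.11 (SNRPN) and the knockout means from -1.57 (RBM48) to 6.21 (SNRPN). Replicate arrays were close together, with a median SD of 0.051 log2 units over the genes in wild type and 0.064 in the knockout. In cultured cells measured in bulk, fewer expressing cells and less RNA per cell cannot be told apart.

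**Figure D1:**
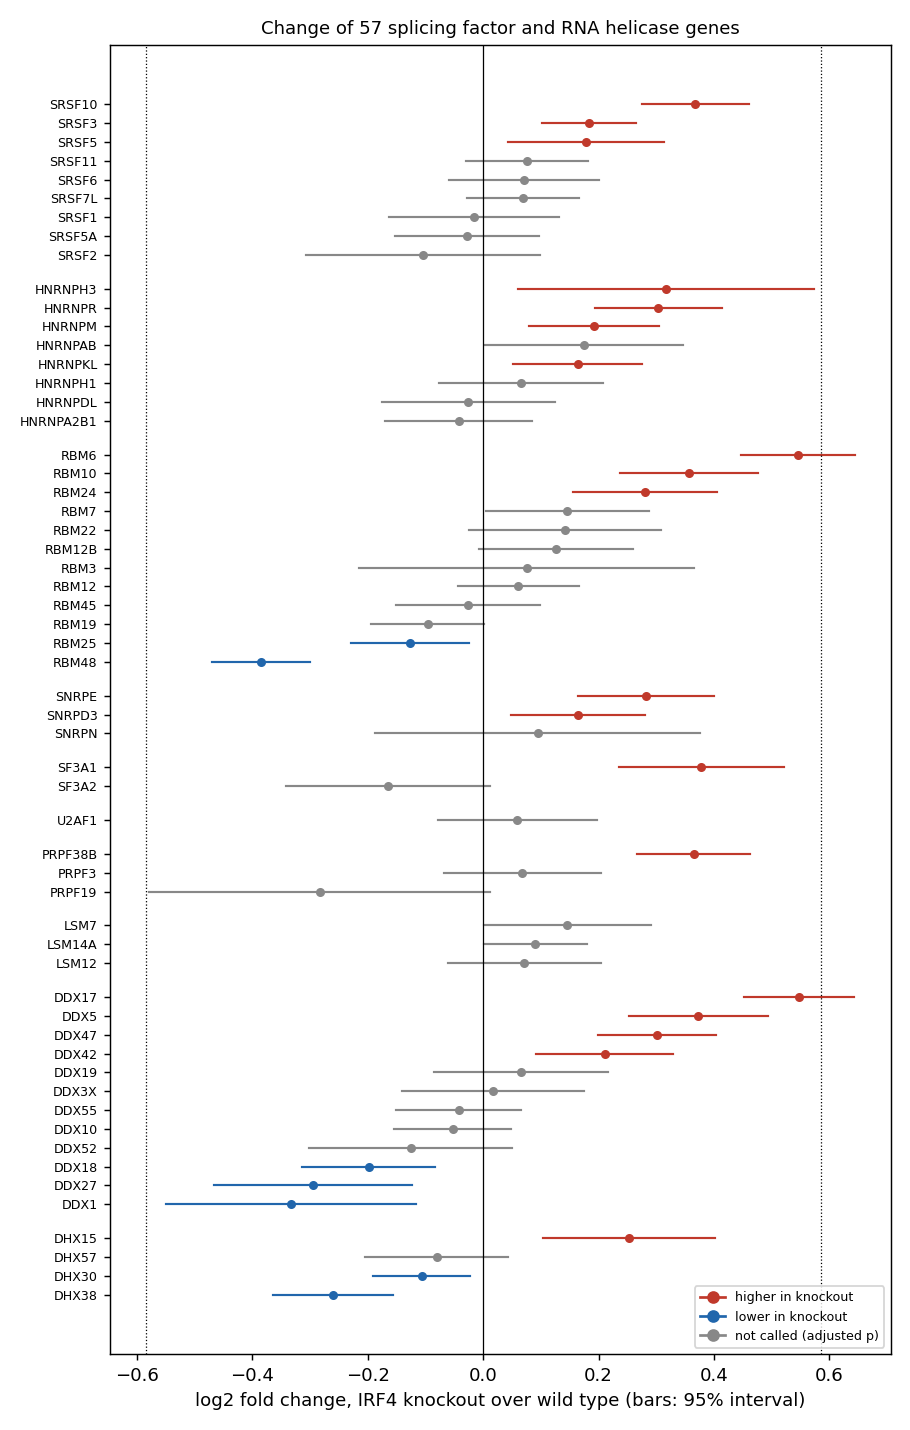
Log2 fold change (knockout over wild type, x axis) of the brightest probe of each of the 57 tested genes, grouped by class from SRSF at the top to DHX at the bottom; points are limma estimates and bars 95% intervals, with 3 arrays in each group. Red marks the 19 genes higher in the knockout, blue the 7 lower and grey those not called, and the dotted lines mark 1.5-fold, which no point reaches.

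Loss of IRF4 was accompanied by small shifts in this machinery. In limma, at a Benjamini-Hochberg adjusted p under 0.05 over all 19802 features, 19 of the 57 genes were higher in the knockout and 7 were lower, 45.6% in all. The background in this comparison was 69.2% of all features and 69.7% of the 3836 tested named genes, so the members' share lay below that of the array at large; the difference between the shares was not tested. By direction the members' shares were 33.3% higher and 12.3% lower, against 40.4% and 28.8% of all features and 38.2% and 31.6% of named genes. The counts by class below have this same background. The split depended on the scaling: with each array centred on its median, 11 members were higher and 13 lower, and the members' median change moved from 0.07 to -0.02. The median over all features moved likewise, from 0.09 to -0.00076. Under the reported scaling, the medians of members and classes are therefore to be read against 0.09 and not against 0. The 2 groups of arrays did not overlap for 34 members (59.6%), against 74.7% of all features and 76.1% of named genes, and 8 of those 34 were not called.

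The changes were narrow in size. Over the 57 genes the log2 fold change ran from -0.39 (RBM48) to 0.55 (DDX17), and the median size in either direction was 0.15, against 0.30 over all named genes. A 1.1-fold difference was reached by 30 members (52.6%) and by 73.0% of named genes. At 1.2-fold the shares were 28.1% and 54.9%, and at 1.3-fold 3 members (5.26%) and 42.1% of named genes. No member reached 1.5-fold by its brightest probe, while 1038 of the 3836 named genes (27.1%) and 30.4% of all features did. Every tested member was well above background on all 6 arrays, which not all of these were. Among named genes with such a probe, 857 of 3603 (23.8%) reached 1.5-fold. For 55 of the 57 genes both ends of the 95% interval lay within 1.5-fold, including all 31 that were not called. The exceptions were DDX17 and RBM6.

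**Figure D2:**
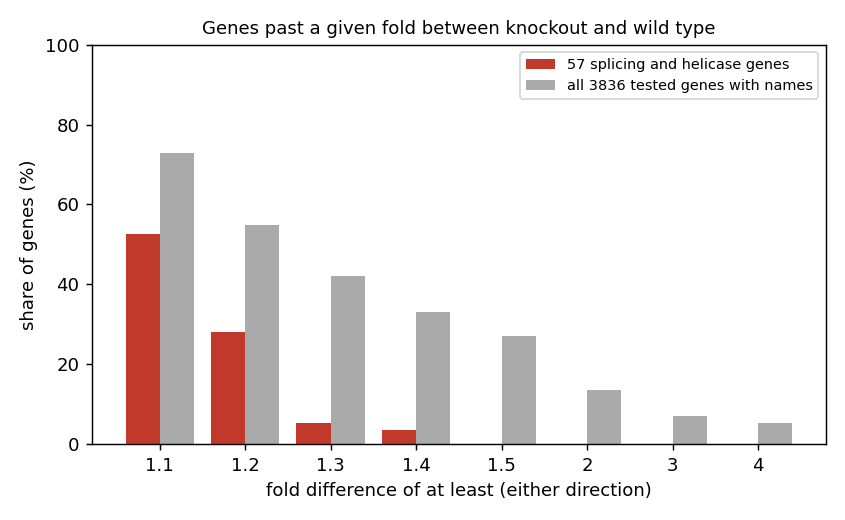
Share of genes (y axis, percent) whose wild-type and knockout means differ by at least the fold on the x axis, in either direction and whatever the p; red bars are the 57 splicing and helicase genes and grey bars all 3836 tested genes with names. From 1.5-fold upward the red bars are at 0, while the grey bars fall from 27.1% at 1.5-fold to 5.24% at 4-fold.

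Among the serine/arginine-rich proteins, which bind exons and recruit the spliceosome, 3 of 9 genes rose, none fell (none at an unadjusted p under 0.05 either) and 6 were not called. Their median log2 fold change was 0.07, and it turned to -0.02 with median centring, with quantile scaling and in the authors' deposited table. SRSF10, a member that can also repress splicing, stood at 3.34, 3.29 and 3.34 on the wild-type arrays and at 3.65, 3.69 and 3.72 on the knockout arrays. The groups were well apart, and the log2 fold change was 0.37 ± 0.04 (SE, n = 3 in each group, limma adjusted p = 0.00024). SRSF3, a small member that also serves mRNA export, read 5.32, 5.35 and 5.32 in wild type and 5.52, 5.50 and 5.52 in the knockout. Its rise of 0.18 ± 0.03 (adjusted p = 0.0032) was small but beyond the spread of the arrays, although it was 0.04 (adjusted p = 0.51) after quantile scaling. SRSF5 rose by 0.18 ± 0.06 (adjusted p = 0.028), a call that was lost without replicate 1 or 3 of either group (adjusted p 0.058 to 0.078).

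The founding members of the family were not called. SRSF1, which binds exonic enhancers and promotes use of nearby splice sites, stood at 5.78, 5.75 and 5.76 in wild type and at 5.75, 5.85 and 5.64 in the knockout. The wild-type arrays lay within the range of the knockout arrays, and the log2 fold change was -0.02 with a 95% interval from -0.16 to 0.13. Quantile scaling gave a called fall (-0.18, adjusted p = 0.046), and the mean of its 5 probes a called rise (0.10, adjusted p = 0.045). SRSF2, a marker of nuclear speckles, read 4.52, 4.30 and 4.48 in wild type and 4.33, 4.21 and 4.44 in the knockout. Its groups overlapped, with a change of -0.10 and an interval from -0.31 to 0.10. However, 2 of its 5 probes were called lower (-0.15 and -0.26), as was their mean (-0.13, adjusted p = 0.016), and so was the brightest probe after subtraction of the chromosome median (-0.24, adjusted p = 0.033). SRSF6, SRSF7L, SRSF11 and SRSF5A had log2 fold changes between -0.03 and 0.08.

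**Figure D3:**
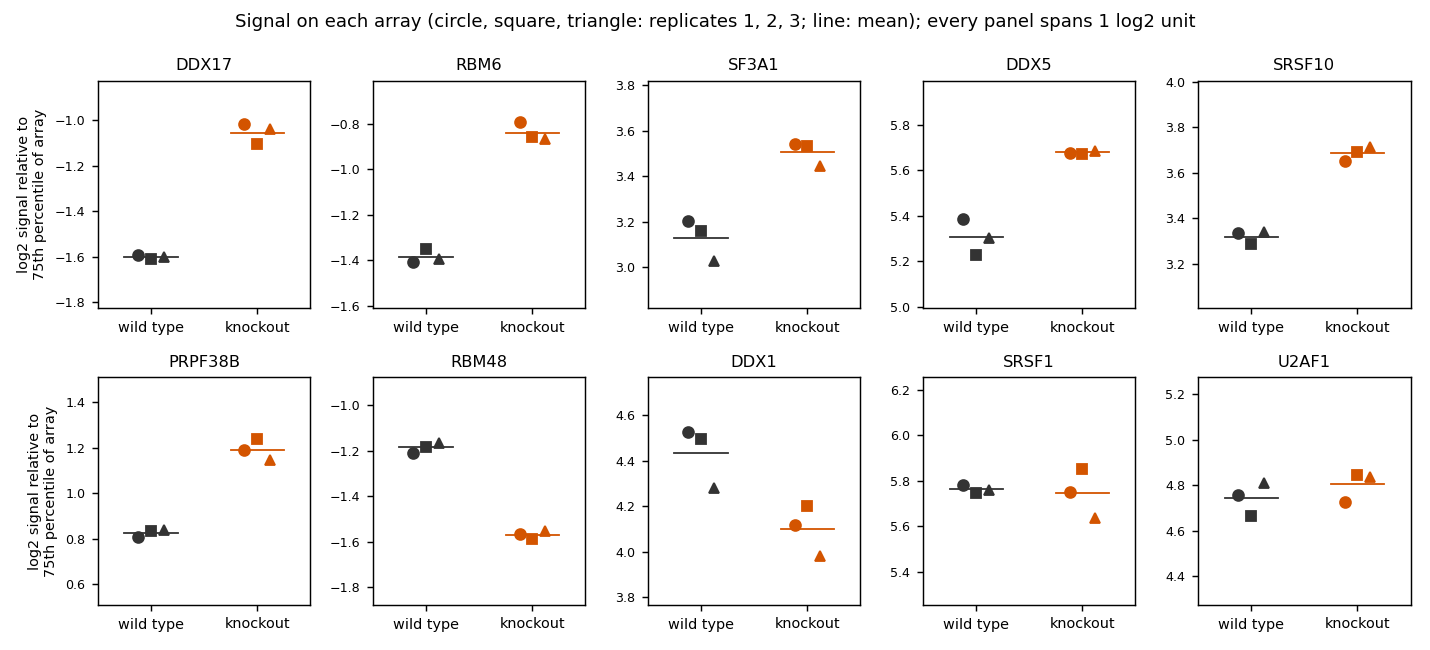
Log2 signal relative to the 75th percentile of the array (y axis) on each of the 3 wild-type and 3 knockout arrays for 10 genes; circles, squares and triangles are replicates 1, 2 and 3, lines are group means, and each panel spans 1 log2 unit around its own gene. In the panels of DDX17, RBM6, SF3A1, DDX5, SRSF10 and PRPF38B the knockout arrays lie above all wild-type arrays, in those of RBM48 and DDX1 below them, and for SRSF1 and U2AF1 the groups overlap.

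The heterogeneous nuclear ribonucleoproteins, which coat nascent transcripts and often oppose the serine/arginine-rich proteins, gave 4 of 8 genes higher and none lower (none at an unadjusted p under 0.05). The class median was 0.17, and it remained above 0 under every scaling and background tried, at 0.08 to 0.17. HNRNPR stood at 3.27, 3.34 and 3.36 in wild type and at 3.68, 3.59 and 3.60 in the knockout. The groups did not overlap (0.30 ± 0.04, adjusted p = 0.0013). HNRNPH3, which belongs to the G-rich RNA binding H and F group, read 5.71, 5.61 and 5.31 in wild type and 5.90, 5.86 and 5.82 in the knockout. Its wild-type replicate 3 lay well below the other wild-type arrays. The rise of 0.32 ± 0.10 (adjusted p = 0.035) was not called without wild type replicate 2 (adjusted p = 0.057) or without any one of the knockout arrays (0.067 to 0.094). It shrank to 0.20 without wild type replicate 3, and to 0.17 (adjusted p = 0.21) both after quantile scaling and in the authors' deposited table.

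HNRNPM, a splicing regulator, rose by 0.19 ± 0.05 (adjusted p = 0.011) and HNRNPKL, named for its likeness to HNRNPK, by 0.16 ± 0.05 (adjusted p = 0.019). The call for HNRNPKL was lost without wild type replicate 2 (adjusted p = 0.062) or 3 (adjusted p = 0.064). HNRNPA2B1, which regulates splicing and sorts RNAs, stood at 5.62, 5.59 and 5.50 in wild type and at 5.53, 5.58 and 5.46 in the knockout, so that the groups overlapped. Its change was -0.04 (interval -0.17 to 0.08) and was called lower under quantile scaling (-0.21, adjusted p = 0.015). HNRNPDL had the smallest change of the class, -0.03 (interval -0.18 to 0.12), HNRNPH1 had 0.07, and HNRNPAB had 0.17 with overlapping groups. HNRNPAB was called without wild type replicate 1 (0.23, adjusted p = 0.029).

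Of the spliceosome cores, SNRPE and SNRPD3, subunits of the Sm ring that encircles spliceosomal small nuclear RNAs, rose. SNRPE read 5.21, 5.07 and 5.13 in wild type and 5.41, 5.39 and 5.45 in the knockout. Every knockout array was above every wild-type array (0.28 ± 0.05, adjusted p = 0.0024). For SNRPD3 the rise was 0.16 ± 0.05 (adjusted p = 0.021). It was not called without wild type replicate 3 (adjusted p = 0.076) or without knockout replicate 1 (0.062) or 3 (0.065). After quantile scaling it was 0.06 (adjusted p = 0.28). The other probe of SNRPD3 showed no such rise (0.0015, limma adjusted p = 0.98), and the mean of both probes was not called (0.08, adjusted p = 0.080). SNRPN, a tissue-restricted relative of the Sm protein SNRPB in mammals, stood at 6.21, 5.92 and 6.21 in wild type and at 6.21, 6.05 and 6.37 in the knockout, with overlapping groups and a change of 0.09 (interval -0.19 to 0.38).

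SF3A1 and SF3A2 encode subunits of the SF3a part of the U2 small nuclear ribonucleoprotein, which marks the branch point. SF3A1 read 3.20, 3.16 and 3.03 in wild type and 3.54, 3.53 and 3.45 in the knockout. The lowest knockout array was above the highest wild-type array (0.38 ± 0.06, adjusted p = 0.0015). SF3A2 had a change of -0.17 that was not called (adjusted p = 0.085), although its groups did not overlap: 2.03, 1.84 and 1.84 in wild type and 1.74, 1.65 and 1.83 in the knockout. It was called lower with normexp background correction (-0.19, adjusted p = 0.043) and by the mean of its 3 probes (-0.21, adjusted p = 0.0039). U2AF1, which reads the AG that ends an intron, stood at 4.76, 4.67 and 4.81 in wild type and at 4.73, 4.85 and 4.84 in the knockout. The groups overlapped, and its interval ran from -0.08 to 0.20.

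PRPF38B, related to a spliceosome activation factor of yeast, stood at 0.81, 0.84 and 0.84 in wild type and at 1.19, 1.24 and 1.15 in the knockout. The wild-type arrays were nearly the same and all knockout arrays were higher (0.36 ± 0.04, adjusted p = 0.00032). PRPF19, a ubiquitin ligase at the catalytic core, read 2.03, 1.97 and 2.08 in wild type and 1.93, 1.82 and 1.47 in the knockout. Knockout replicate 3 lay well below the other arrays of its group. The change of -0.28 was not called (adjusted p = 0.079). It was -0.15 without knockout replicate 3 and -0.38 (adjusted p = 0.036) without knockout replicate 1. PRPF3, a protein of the U4/U6 particle, had a change of 0.07 (interval -0.07 to 0.20).

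None of the 3 LSM genes was called by limma, although 2 were higher at an unadjusted p under 0.05, and their log2 fold changes lay between 0.07 and 0.15. LSM7 belongs to the LSM rings of U6 small nuclear RNA and of mRNA decay, and LSM14A to the bodies in which untranslated mRNA is held. LSM7 had non-overlapping groups (2.63, 2.56 and 2.57 against 2.65, 2.84 and 2.71) and a change of 0.15 with an adjusted p of 0.069, or 0.19 (adjusted p = 0.037) without knockout replicate 1 and 0.09 without knockout replicate 2. After quantile scaling and in the authors' deposited table, which were nearly alike over the array, LSM7 was called higher (0.15, adjusted p = 0.049 in both). LSM14A also had separate groups, at 0.09 (adjusted p = 0.068), and the mean of its 3 probes, 2 of them called, was 0.19 (adjusted p = 0.0067). LSM12 had the smallest change of the 3, 0.07 (interval -0.06 to 0.20).

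Proteins with RNA-binding motifs (RBM) form a mixed class, in which 3 of 12 genes rose, 2 fell and 7 were not called. RBM6 and its relative RBM10, both regulators of alternative splicing, rose. RBM6 stood at -1.41, -1.35 and -1.40 in wild type and at -0.79, -0.86 and -0.87 in the knockout, 1.46-fold higher. The gap between the groups was many times their spread (0.55 ± 0.04, adjusted p = 5.6e-05). RBM10 read 1.74, 1.63 and 1.66 in wild type and 2.10, 1.99 and 2.01 in the knockout. Its groups were also apart (0.36 ± 0.05, adjusted p = 0.00090), but the call ended when the median of its chromosome (0.23) was subtracted (0.13, adjusted p = 0.051).

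RBM24, known as a regulator of splicing in muscle, stood at 4.45, 4.52 and 4.45 in wild type and at 4.70, 4.72 and 4.84 in the knockout (0.28 ± 0.05, adjusted p = 0.0032). RBM48, a protein of the minor spliceosome in human cells, had the largest fall of any member. It read -1.21, -1.18 and -1.17 in wild type and -1.57, -1.59 and -1.56 in the knockout. Both groups were tight and clear of each other (-0.39 ± 0.03, adjusted p = 0.00013). RBM25, which acts with the U1 particle in choosing splice sites, read 1.70, 1.65 and 1.62 in wild type and 1.52, 1.57 and 1.49 in the knockout, with no overlap. Its fall (-0.13 ± 0.04, adjusted p = 0.034) was not called when any one wild-type array was left out, or without knockout replicate 1 or 3 (adjusted p 0.059 to 0.099).

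RBM3, induced by cold, was not called, at 5.17, 5.31 and 5.02 in wild type and at 5.28, 5.03 and 5.41 in the knockout. It had the widest spread of the RBM genes within the knockout (SD 0.19), and its interval ran from -0.22 to 0.37. RBM45 had the smallest change, -0.03. RBM7, of the nuclear exosome targeting complex, had 0.15 and was called without wild type replicate 1 (0.19, adjusted p = 0.036). RBM12B had 0.13 and was called without knockout replicate 3 (0.16, adjusted p = 0.049). RBM22, which sits at the catalytic core, had 0.14, and 0.07 without knockout replicate 2. RBM12 had 0.06, and its mean over both probes was called higher (0.14, adjusted p = 0.0094). RBM19, a ribosome assembly factor, had -0.10 and was called lower under 5 other settings, with values from -0.19 (median centring) to -0.12 (mean of its probes).

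The helicases went both ways. Of the 16 genes 5 rose, 5 fell and 6 were not called, while 40.4% of all features were higher and 28.8% lower. The median of the helicases was -0.05, against 0.09 for the other 41 genes, of which 14 rose and 2 fell. The difference between them was not tested, and with median centring 3 helicases were higher and 8 lower, and 8 of the other genes higher and 5 lower. The paralogs DDX5 and DDX17, which act in splicing and as transcriptional coregulators, both rose. DDX17 stood at -1.59, -1.61 and -1.60 in wild type and at -1.02, -1.11 and -1.04 in the knockout. The wild-type arrays were almost equal and the knockout arrays clearly higher, 1.46-fold (0.55 ± 0.04, adjusted p = 4.6e-05). DDX5 read 5.39, 5.23 and 5.30 in wild type and 5.68, 5.67 and 5.69 in the knockout. Here the knockout arrays were the tight group (0.37 ± 0.05, adjusted p = 0.00075).

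Of the helicases of the spliceosome itself, DHX15 and DHX38 moved in opposite directions. DHX15, which takes the spliceosome apart after splicing, stood at 4.11, 3.98 and 3.94 in wild type and at 4.29, 4.32 and 4.18 in the knockout, with no overlap (0.25 ± 0.06, adjusted p = 0.011). DHX38, which remodels the complex between the catalytic steps, read 1.18, 1.08 and 1.11 in wild type and 0.83, 0.88 and 0.88 in the knockout. All knockout arrays were lower (-0.26 ± 0.04, adjusted p = 0.0019). DDX42, associated with the U2 particle, rose by 0.21 ± 0.05 (adjusted p = 0.0088). With median centring the calls for DHX15 (0.16, adjusted p = 0.058) and DDX42 (0.12, adjusted p = 0.070) ended. With slide as a fixed block those for DHX15, DHX38 and DDX42 ended.

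Among helicases known for ribosome assembly, DDX47 rose while DDX18 and DDX27 fell. DDX47 stood at 2.57, 2.54 and 2.55 in wild type and at 2.82, 2.92 and 2.82 in the knockout (0.30 ± 0.04, adjusted p = 0.00090). DDX27 read 4.75, 4.59 and 4.71 in wild type and 4.29, 4.49 and 4.39 in the knockout (-0.29 ± 0.07, adjusted p = 0.010). DDX18 read 2.34, 2.33 and 2.29 against 2.11, 2.19 and 2.06 (-0.20 ± 0.05, adjusted p = 0.010), and its mean over both probes was not called (adjusted p = 0.22). For each of these 3 genes the groups were apart. DDX10, DDX52 and DDX55, of the same process, were not called, at -0.05, -0.13 and -0.04. With median centring DDX10 (-0.14, adjusted p = 0.028) and DDX52 (-0.22, adjusted p = 0.043) were called lower.

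DDX1, a subunit of the tRNA ligase complex, had the largest fall among helicases. It stood at 4.52, 4.49 and 4.28 in wild type and at 4.12, 4.20 and 3.98 in the knockout, and replicate 3 was the lowest array in both groups. The groups did not overlap (-0.33 ± 0.09, adjusted p = 0.016), but the call was lost without wild type replicate 2 (-0.30, adjusted p = 0.053). DHX30, which serves mitochondrial ribosomes, read 1.43, 1.46 and 1.46 in wild type and 1.36, 1.35 and 1.32 in the knockout. This fall was the smallest called, -0.11 ± 0.03 (adjusted p = 0.032), and it was not called without wild type replicate 2 or 3 or without any knockout array (0.053 to 0.106). DDX3X, a helicase of translation initiation, read 4.43, 4.27 and 4.32 in wild type and 4.41, 4.26 and 4.41 in the knockout, overlapping, with an interval from -0.14 to 0.17. DHX57 had -0.08. DDX19, of mRNA export, had 0.07, and 0.13 (adjusted p = 0.042) without knockout replicate 3. However, the only one of its 4 probes called with all arrays, a dimmer one, was lower (-0.21, limma adjusted p = 0.013).

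Most genes could be followed through more than 1 probe. Of the 167 member probes past the filter, 82 were called (49.1%, against 70.1% of all probes) and 6 reached 1.5-fold (3.59%, against 29% of all probes). Of the 47 genes with at least 2 tested probes, 38 had all probes on one side of 0, and none had probes called in opposite directions. Every probe was called for 12 genes, some for 26 and none for 9, and the median range of the log2 fold change within a gene was 0.14. SRSF3 was called higher by 6 of 7 probes (0.12 to 0.31), and SNRPE by all 4 (0.28 to 0.32). The dimmer probe of DDX17 gave 0.46, that of DDX5 0.47 and that of SF3A1 0.44. HNRNPH1 was called by none of its 7 probes (1 at an unadjusted p under 0.05), which lay between 0.04 and 0.11, and U2AF1 by none of 5 (0 unadjusted; -0.05 to 0.09). For SRSF1 the brightest probe was the exception: 2 of the 4 dimmer probes were called higher (0.15 and 0.16).

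The change at each further probe was then set against that at the brightest probe of its gene on the same array. A constant shift of a whole array cancels in this comparison, but scaling that depends on brightness, such as quantile scaling, can alter it. The comparison was chosen after the data had been seen. For 10 of 110 further probes (9.09%) the change differed (limma, adjusted over all named genes), against 15.9% of the 4448 further probes of named genes, and the 10 belonged to 8 genes. In SRSF10 the dimmer probe (A_87_P051086) stood at -0.48, -0.49 and -0.37 in wild type and at 0.67, 0.70 and 0.60 in the knockout. That is 2.15-fold higher, against 1.29-fold at the brighter probe (difference 0.74 ± 0.05, adjusted p = 0.00021). RBM48 was 1.31-fold lower at its brightest probe but 2.09-fold lower at A_87_P190344 and 1.62-fold lower at A_87_P051246 (differences -0.68 ± 0.07 and -0.31 ± 0.07, adjusted p = 0.00082 and 0.029). Both of these dim probes were well above background on all 6 arrays.

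HNRNPR rose by 0.65 and 0.55 at its further probes against 0.30 (adjusted p of the differences 0.011 and 0.017), and SRSF5 by 0.66 at A_87_P084956 against 0.18 (adjusted p = 0.032). DDX3X, not called by its brightest probe, was 0.35 higher at its dimmest of 8 (difference adjusted p = 0.033), and the mean of the 8 was called higher (0.16, adjusted p = 0.011). In DDX47 (0.06 against 0.30) and RBM24 (0.06 against 0.28) the further probe changed less, and in PRPF3 it went the other way (-0.22 against 0.07, difference adjusted p = 0.030). The number of such probes was 3 without wild type replicate 3, 5 without wild type replicate 2 or knockout replicate 2, 6 without wild type replicate 1, and 7 to 9 without either of the other knockout arrays. Which exons or transcript forms these probes read, and whether related genes hybridise to them, was not tested.

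**Figure D4:**
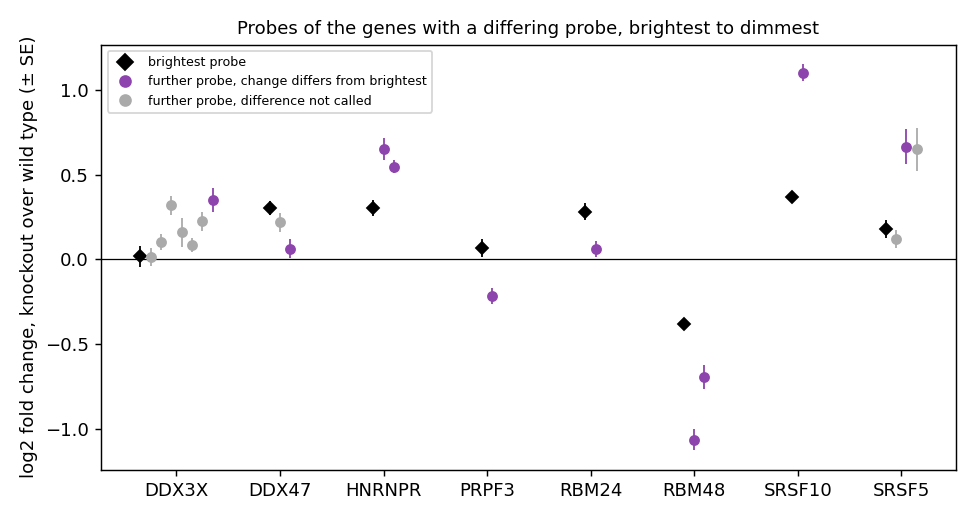
Log2 fold change (knockout over wild type, y axis; bars are limma standard errors, 3 arrays in each group) at every tested probe of the 8 genes with a further probe whose change differed from that of the brightest one. Black diamonds are the brightest probes, purple points the 10 differing probes and grey points the others, from bright to dim within a gene; the largest distance is that in SRSF10, a difference of 0.74.

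Position in the genome moved with part of these values. The genes were assigned to chromosomes by the reference, and a chromosome with at least 20 named genes was set apart when their median log2 fold change lay 0.25 or more from that of all placed named genes (0.05), a limit chosen with earlier results known. On the chromosome that carries DHX30, HNRNPA2B1, RBM12B, RBM24 and RBM48, which also carries IRF4, the median over 337 named genes was -0.43. On the one with DDX1, DHX57 and SRSF7L it was -0.39 over 307 genes, and on the one with HNRNPR and SRSF10 it was 0.51 over 65 genes. Of the 8 members on the lowered chromosomes 3 fell and 1 rose, and the 2 on the raised one both rose. RBM24 was 0.28 higher although its chromosome was lowered.

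With the median of its chromosome subtracted from each gene, RBM48 stood at 0.04 (adjusted p = 0.29) and DDX1 at 0.06 (adjusted p = 0.59), neither called. The calls for RBM10, DDX42, DHX15, HNRNPH3, HNRNPKL, HNRNPM, SNRPD3 and SRSF5 ended as well. None of these genes is on a chromosome set apart above. Apart from RBM10 (0.23), their chromosomes had medians of 0.05 to 0.13, near the median of 0.09 over all features. Median centring of the arrays, without regard to chromosome, also ended each of these calls except that for RBM10. SRSF10 and HNRNPR turned to -0.14 (adjusted p = 0.012) and -0.20 (adjusted p = 0.0053). RBM24 then stood at 0.71, RBM12B at 0.55, SRSF7L at 0.46, HNRNPA2B1 at 0.38, DHX30 at 0.32 and DHX57 at 0.31, all called higher relative to their chromosome. On the remaining chromosomes, without the subtraction, 16 of 47 members were higher and 4 lower, with a median of 0.08. Of all features 40.4% were higher and 28.8% lower. Copy number was not measured, and its part in these values was not tested.

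Slides and cultures were not fully separable from the groups. Slides 1 and 2 each held 1 array of both groups, while wild type replicate 3 and knockout replicate 3 were alone on theirs. Within slides 1 and 2 the median difference over the 57 genes was 0.02 and 0.10. For all 26 called genes the difference within each slide had the sign of the full comparison. That had to be so, because the groups of these genes do not overlap, and it says nothing about the slides. With slide as a fixed term 9 members were called higher and 2 lower, and as a random block 19 and 7. The fixed term takes up the arrays alone on their slides, so that fit compares the groups on slides 1 and 2 only. Whether calls ended through the slides or through the fewer arrays was not tested. The 15 calls that ended with the fixed term were those for DDX18, DDX27, DDX42, DHX15, DHX30, DHX38, HNRNPH3, HNRNPKL, HNRNPM, RBM24, RBM25, SNRPD3, SNRPE, SRSF3 and SRSF5 (adjusted p 0.054 to 0.318). All 15 kept their sign, which had to be so, because that fit averages within-slide differences of groups that do not overlap. Their log2 fold changes were 69.7% to 115% of the reported ones (median 96.4%). Median centring ended the calls for DDX42, DHX15, HNRNPH3, HNRNPKL, HNRNPM, SNRPD3, SRSF3 and SRSF5. The calls for DDX5, DDX17, DDX47, PRPF38B, RBM6 and SF3A1, all higher, held under each of the 18 other settings that gave a test. Not every setting could alter their values. PRPF38B and RBM6 had 1 probe each, so the mean of probes left them unchanged. All of these genes were well above background on all 6 arrays, so no filter could remove them. Among the 5 scalings and background corrections, quantile scaling and the authors' table were nearly alike and are not separate checks. In all, 11 higher and 7 lower calls held under all 5, the reported one included. Relative to the reported one, each of the others lowered the median over all features (shifts of -0.09 to -0.01). Such a shift tends to keep lower calls and to end higher ones, so holding here says little about the 7 lower calls.

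**Figure D5:**
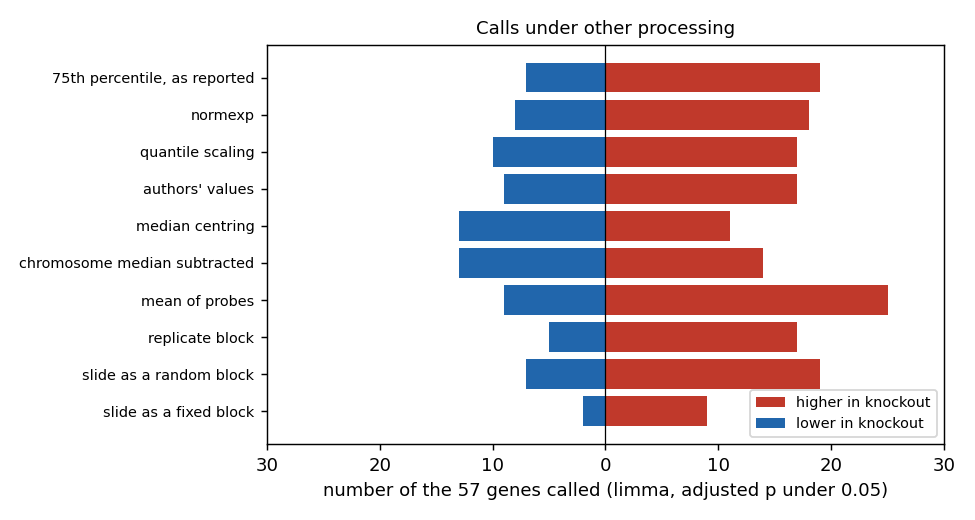
Number of the 57 genes called higher (red, to the right) and lower (blue, to the left) in the knockout under the reported processing (top bar) and 9 other settings (limma, adjusted p under 0.05). Higher calls range from 9 with slide as a fixed block to 25 with the mean of all probes, and lower calls from 2 to 13. The fixed slide block compares the groups on slides 1 and 2 only.

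Genes of RNA processing outside the symbol rule were followed through 7 lists, with 59 genes tested. Of these, 21 rose, 13 fell and 25 were not called, with a median of 0.04. The called share was 57.6%, against 69.2% of all features, and 3 (5.08%) reached 1.5-fold, against 30.4%. Among 12 further spliceosome subunits 5 rose and 3 fell (66.7% called). SNRNP40, a U5 particle protein, had the largest rise, from 2.60, 2.65 and 2.62 to 3.31, 3.30 and 3.29, or 1.60-fold (adjusted p = 1.2e-05). SLU7, which acts in choosing the end of the intron, had the largest fall, 1.47-fold (-0.55 ± 0.05, adjusted p = 0.00011).

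Of 24 further splicing regulators 10 rose and 5 fell (62.5% called). MBNL2, a muscleblind regulator of alternative exons, stood at -1.61, -1.66 and -1.58 in wild type and at -3.92, -3.84 and -3.85 in the knockout. At 4.77-fold lower (-2.26 ± 0.04, adjusted p = 3.2e-07) it had the largest change of the 59 genes, while its relatives MBNL1 and MBNL3 changed by -0.55 and 0.24 (adjusted p = 0.00019 and 0.023). KHDRBS1 (Sam68), a signal-dependent splicing regulator, had the largest rise, 0.50 ± 0.09 (adjusted p = 0.0031). The sign of KHDRBS1 turned when the median of its chromosome was subtracted. Of the 3 kinases that phosphorylate serine/arginine-rich proteins 2 rose, DYRK1A the most (0.49 ± 0.06, adjusted p = 0.00070). DYRK1A was dim (-4.83 in wild type, -4.34 in the knockout), though well above background on all 3 arrays of each group. The list for the SMN complex, which loads Sm rings onto RNA, and its partners had 4 tested genes: SMN, GEMIN2, STRAP and WDR77. None was called by limma, at an unadjusted p under 0.05 either, and their changes lay between -0.03 and 0.05. GEMIN2 was dim (-4.84 in wild type, -4.81 in the knockout) and had no value on knockout replicate 2. Its SE was 0.14, so its change is only loosely bounded.

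Of 8 genes of the exon junction complex, nonsense-mediated decay and mRNA export 3 rose and 3 fell (75% called). THOC7, of the export complex THO, was 1.79-fold lower (-0.84 ± 0.08, adjusted p = 0.00013), and NCBP1, the larger cap-binding protein, had the largest rise (0.58 ± 0.05, adjusted p = 0.00011). Among 4 decay genes XRN2, a nuclear exonuclease, fell most (-0.49 ± 0.04, adjusted p = 7.9e-05), and PAN2, a deadenylase, rose (0.33 ± 0.06, adjusted p = 0.0024). Of 5 helicases whose symbols fall outside the rule only EIF4A3, the anchor of the exon junction complex, was called (-0.29 ± 0.07, adjusted p = 0.0099). The sign of EIF4A3 also turned when the median of its chromosome was subtracted.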

How the data were processed

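Chicken one-colour Agilent arrays were scanned and quantified in Feature Extraction 10.7.1.1, per the file headers. The deposited intensity values used were the background-subtracted processed green signals, and flags for background and outliers were deposited as codes of 0 and 1. The authors' deposited table held intensity values brought to 1 common distribution (median 225.7 on every array) by an unstated method. It gave nearly the same median change over all features as quantile scaling (0.034 and 0.035). Limma and R 2.12.0 appear in the submitters' processing notes.

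Signals were taken as log2 minus each array's 75th percentile. Control and outlier-flagged spots were left out. Probes well above background on all 3 arrays of a group were kept, and the brightest probe stood for its gene. Accessions named 10691 of 43603 probes (24.5%) through a GRCg7b RefSeq table, used without coordinates because the array names galGal3. The groups were compared in R 4.3.3 with limma 3.58.1 (lmFit, eBayes, two-sided), and p was Benjamini-Hochberg adjusted over all 19802 features; each fold change divides knockout by wild type and carries limma's SE. The code was tested on simulated data. The number of arrays, 3 in each group, limits precision.

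Members and lists were chosen with earlier results of these data known. Genes given in full were IRF4, the 10 largest called rises and falls, the largest and smallest changes of each class and some fixed names, of which 14 had no matched probe and are not analysed here; other members are described by single values chosen after they were seen. Lists were matched by current symbol only, a choice made after synonyms had matched wrong genes. Background correction, scaling, filters, probe choice, slide, replicate block and left-out arrays were varied.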

Additional observations from a re-analysis of the deposited data

How the results depend on the processing

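The IRF4 log2 fold change kept its direction under all alternatives, and its call under all with a test (-4.91 to -3.79). The members' 19 higher and 7 lower calls became 11 and 13 with median centring, 9 and 2 with slide as a fixed block, and 14 and 13 with chromosome medians subtracted (RBM24 then passed 1.5-fold); as reported, 0 and 0 reached 1.5-fold. Replicates left out in turn gave 16 to 20 higher and 4 to 6 lower calls, the 4 without wild type replicate 2. For other RNA genes, 21 and 13, slide as a fixed block gave 8 lower calls, and 1 and 2 reached 1.5-fold. The 10 differing probes became 5 with slide as a fixed block and 3 to 9 with replicates left out. Within single slides there is no test, so no calls were counted. Replicate numbers did not pair the cultures: same-numbered deviations correlated at -0.026, -0.012 and -0.015, and the replicate block gave 17 higher and 5 lower members, 20 and 12 other genes and 9 differing probes. With the mean of all probes 25 were higher and 9 lower, RBM48 and SRSF10 then passed 1.5-fold, and SRSF1 turned to 0.10.

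With chromosome medians subtracted 19 members changed sign; 12 of them were called neither before nor after (-0.079 to -0.015). The other 7 were, at the brightest probe, DDX1 (0.056), DHX30 (0.32), DHX57 (0.31), HNRNPA2B1 (0.38), HNRNPR (-0.20), RBM48 (0.042) and SRSF10 (-0.14). Outside the rule EIF4A3 turned to 0.094 and KHDRBS1 to -0.010. The subtraction itself moves each value by its chromosome's median; the cause of the other changes was not tested. With 3 arrays a group, the smallest called change was -0.11 (DHX30), a gene with little spread. That value is not a limit of detection: PRPF19, at -0.28 (limma adjusted p = 0.079), was not called. Changes of this size and smaller may thus go uncalled.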
